A study of Mus musculus with 4 samples.

Results

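Dusp1, Dusp4, Dusp5 and Dusp6 encode 4 MAP kinase phosphatases, and their RNA was followed in mouse 3T3 fibroblasts given tumour necrosis factor (TNF). Every probe set annotated to 1 of these genes was taken, which gave 4 probe sets, 1 a gene, of the 45101 on the array and 4 genes of the 18193 that the array names. No probe set of several genes included one of them. The 4 arrays of the series each measured mouse embryonic 3T3 cells, an immortal fibroblast line. All cells were kept overnight in 0.5% serum, and the groups were basal cells, harvested with no TNF, and cells given TNF for 0.5 h, 2 h or 12 h. The labels give 10 ng/ml TNF for the 0.5 h and 12 h cells. For the 2 h cells the treatment text is the basal one and mentions no TNF, and the time was taken from the title, which the source name matches. With 1 array in each of the 4 groups there is no spread between replicates and 0 tests were run. No array held cells kept in low serum for the same added time without TNF, so TNF and added time cannot be told apart.

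MAP kinase phosphatases remove phosphate from both the threonine and the tyrosine that activate ERK, JNK and p38. The genes of several of them are themselves switched on by these kinases, so the enzymes act as negative feedback. Dusp1 and Dusp4 encode nuclear enzymes that act on more than one class of MAP kinase. Dusp5 encodes a nuclear enzyme and Dusp6 a cytoplasmic one, and both act mainly on ERK, the MAP kinase of growth factor signalling. TNF activates NF-kB as well as JNK, p38 and ERK in fibroblasts.

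The deposited values are linear probe set signals in the authors' own units. A floor of 9.08, the 30th percentile over the whole table, replaced every smaller signal before log2 ratios were taken, and "at least" marks a ratio in which one value was floored. "Rose" and "fell" mean a ratio of at least 2-fold, a fixed rule and not a test. A second level of 102, the 75th percentile, is called the clear-signal level. The median signal of an array ran from 19.9 at 12 h to 22.1 in basal cells, and the ratio to basal had a median, over all genes analysed, on the log2 scale, of -0.03 at 0.5 h, -0.09 at 2 h and -0.14 at 12 h. Of 8 fibroblast markers, 7 lay above the clear-signal level on all 4 arrays, with Thy1 below it on all, and their summed signal ran from 34730 to 36027. Of 7 macrophage and leukocyte markers 6 lay below it on all arrays and 1 reached it on at least 1 array but not on all, with Ptprc and Itgam at the floor throughout. All 5 endothelial and all 5 epithelial markers lay below it on all arrays, and the summed signals of these 3 lists ran from 234 to 258, from 49.1 to 65.9 and from 84.1 to 111. Tnfaip3, a gene that TNF induces through NF-kB, read 268 on the basal array and 2521, 1463 and 568 after 0.5, 2 and 12 h of TNF, so the array labelled 2 h was 5.46-fold above basal for this gene.

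Of the 4 phosphatase genes, 0 rose or fell at 0.5 h, 3 fell at 2 h (Dusp4, Dusp5 and Dusp6) and 2 fell at 12 h (Dusp4 and Dusp5), and 0 rose at any time. At 0.5 h, 2.55% of the 16269 genes rose and 2.96% fell. At 2 h, 2.58% rose and 3.60% fell, and at 12 h, 2.79% rose and 5.18% fell. The median log2 ratio of the 4 genes was -0.03, -1.15 and -0.98 at the 3 times, beside -0.03, -0.09 and -0.14 for all genes. In the step from 0.5 h to 2 h 1 of the 4 fell, Dusp5, when 2.96% of all genes fell and 2.60% rose, and Dusp4 was at least 1.99-fold lower, just short of the rule. From 2 h to 12 h Dusp5 alone fell, when 3.12% of all genes fell and 2.81% rose, while Dusp1 and Dusp6 had ratios above 0 and Dusp4 was at the floor on both arrays. The comparisons with basal share 1 basal array, and an error in it would move all 3 ratios of a gene together.

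Dusp5 and Dusp1 are the genes whose signal was highest at 0.5 h and lower at 2 h, and the 250 bases before their RefSeq start (GRCm38.p6) are shown for the motifs they hold. RefSeq's table matched 3 of the 4 genes, all but Dusp4. The Dusp5 window, chr19:53528895-53529144 on the + strand, has 2 CArG boxes (the binding motif of serum response factor) and 1 short cyclic AMP response element, TGACG, in capitals. The Dusp1 window, chr17:26508473-26508722 on the - strand, has in capitals 1 full cyclic AMP response element, TGACGTCA, and a further short element.
Dusp5: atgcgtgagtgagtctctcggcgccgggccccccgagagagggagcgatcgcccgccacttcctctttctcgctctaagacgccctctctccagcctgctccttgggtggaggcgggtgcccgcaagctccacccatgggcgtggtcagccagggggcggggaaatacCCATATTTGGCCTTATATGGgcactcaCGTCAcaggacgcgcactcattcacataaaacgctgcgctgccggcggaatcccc
Dusp1: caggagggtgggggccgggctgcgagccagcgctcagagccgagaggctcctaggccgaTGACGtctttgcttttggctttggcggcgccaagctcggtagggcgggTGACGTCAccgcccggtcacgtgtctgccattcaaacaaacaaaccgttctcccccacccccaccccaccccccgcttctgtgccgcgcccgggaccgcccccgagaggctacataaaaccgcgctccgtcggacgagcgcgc

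Both strands of each window were searched for 9 motifs. The CArG boxes of Dusp5 lie end to end, from base 82 to base 73 and from base 72 to base 63 before the start, and read CCATATTTGG and CCTTATATGG. Of 32851 windows of the same length, 1.47% hold a CArG box and 6 windows (0.0183%) hold 2 or more. The share with 2 or more was not planned and was counted for this motif alone, of which Dusp5 holds 2. The short element of Dusp5 lies on the other strand, from base 55 to base 51, and 17.8% of windows hold one. The full element of Dusp1 lies from base 143 to base 136, holds 2 overlapping short elements, 1 on each strand, and occurs in 1.55% of windows. Dusp1 also has an E-box, CACGTG (6.02% of windows), and 3 GC boxes, GGGCGG, against 1 in Dusp5 (32.7% of windows hold one). The window of Dusp6, on chromosome 10, matched none of the 9 motifs, which were also AP-1 (TGANTCA, in 6.75% of windows), ETS (CCGGAA, in 12.0%), the TATA box (TATAAA, in 12.4%) and the kappaB site (in 3.90%); neither did these 4 match in Dusp1 or Dusp5. A match says that these letters are there and not that a factor binds.

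Dusp1 (probe set 1448830_at) read 1511 on the basal array and 1727, 980 and 1366 after 0.5, 2 and 12 h of TNF. It was the only one of the 4 genes above the clear-signal level on every array, and its order was 0.5 h, basal, 12 h, 2 h from high to low. The log2 ratio to basal was 0.19 at 0.5 h, -0.62 at 2 h (1.54-fold) and -0.15 at 12 h, all short of the 2-fold rule.

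The 2 h value of Dusp1 nevertheless lay far out among genes of like signal. In the 633 genes whose mean signal lay within 0.5 on the log2 scale of that of Dusp1, the 2 h ratio had a scaled median absolute deviation of 0.11, and 1 gene, Egr1, had a lower ratio (-1.68). Egr1, an early transcription factor gene named here after its value was seen, was also the one gene of the 633 with a lower ratio than Dusp1 in the step from 0.5 h to 2 h, where Dusp1 stood at -0.82 (1.76-fold lower). From 2 h to 12 h Dusp1 was 1.39-fold higher (log2 ratio 0.48), and 8 of the 633 genes had a higher ratio. Its sign at 12 h against basal depended on scaling: the ratio was -0.15 as deposited, and 0.01 with median centring, 0.06 with quantile normalization and 0.06 with loess. The deviation at like signal describes these arrays and includes real change; it is no replicate error.

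Dusp4 (1428834_at) read 21.4 on the basal array and 18.0, 0.611 and 2.33 after 0.5, 2 and 12 h of TNF. The signal was low throughout: both later values lay under the floor, and the basal value only 2.35-fold above it. By the rule Dusp4 fell at least 2.35-fold at 2 h and at 12 h against basal, a log2 ratio of -1.23 at both, and the order of the 2 h and 12 h values is not readable.

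The call for Dusp4 rests on the floor. With the floor at the 50th percentile both ratios were -0.03, and with no floor they were -5.13 and -3.20. Of 4688 genes of like signal, 8.60% passed the same rule downward at 2 h and 8.51% at 12 h, and 5.20% and 5.57% passed it upward. The mean signal of these genes after the floor ran from 9.45 to 18.9, below the basal signal of Dusp4. A gene that starts near the floor cannot pass the rule downward. The downward shares are therefore not the rate for genes that start where Dusp4 does.

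Dusp5 (1437199_at) read 83.6 on the basal array and 106, 26.4 and 7.49 after 0.5, 2 and 12 h of TNF, the last under the floor. The highest value was that of 0.5 h, 1.27-fold above basal (log2 ratio 0.34), which is short of the rule. Dusp5 then fell 3.17-fold at 2 h and at least 9.20-fold at 12 h against basal. Against the array before it, it fell 4.01-fold in the step from 0.5 h to 2 h and at least 2.91-fold from 2 h to 12 h.

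The 12 h ratio of Dusp5 was the lowest that the floor allows from a basal signal of 83.6. No gene with a lower basal signal could have a lower ratio, so the 12 h rank partly reflects basal level. Among all 16269 genes analysed, 67 had a lower ratio than Dusp5 at 2 h and 3 at 12 h. Those 3, named after their values were seen, were the early transcription factor genes Egr3 (29.8-fold on its lead probe set, to 15.0) and Nr4a1 (16.0-fold, to 46.1) and Atoh8 (at least 10.0-fold, to under the floor). Of 1582 genes of like signal, 3.54% fell at 2 h and 6.45% at 12 h, and the scaled median absolute deviation of their ratio was 0.46 and 0.52, against log2 ratios of -1.66 and -3.20 for Dusp5. Only the 0.5 h array put Dusp5 above the clear-signal level. With all signals raised to that level its ratios were 0 at 2 h and at 12 h, so the fall was measured wholly below it.

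Dusp6 (1415834_at) read 53.6 on the basal array and 42.0, 25.6 and 32.3 after 0.5, 2 and 12 h of TNF. All 4 values lay above the floor and below the clear-signal level, with basal highest and 2 h lowest. The log2 ratio to basal was -0.35 at 0.5 h, -1.07 at 2 h and -0.73 at 12 h, so Dusp6 fell 2.10-fold at 2 h by the rule and not at the other times.

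The 2 h call for Dusp6 was narrow. Relative to the median of all genes the 2 h ratio was -0.98, and with median centring, quantile normalization or loess it was -0.97, short of 2-fold in each. Of 1581 genes of like signal, 4.17% passed the rule downward at 2 h and 6.70% at 12 h, and the scaled median absolute deviation was 0.47 and 0.53. From 2 h to 12 h the Dusp6 signal was 1.26-fold higher (log2 ratio 0.34).

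**Figure D1:**
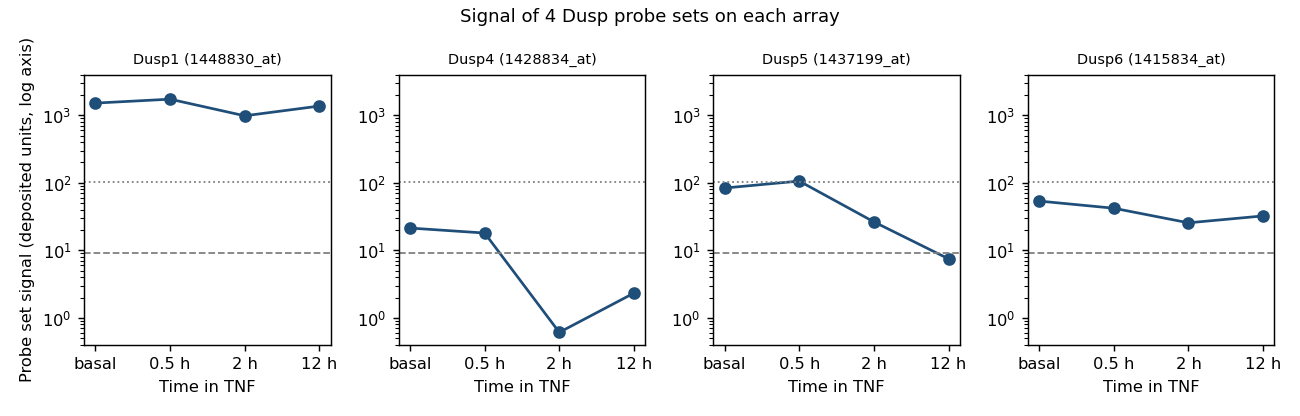
Signal of the probe set of each gene (log axis, deposited units) on the basal, 0.5 h, 2 h and 12 h arrays, 1 array a point; the dashed line is the floor of 9.08 and the dotted line the clear-signal level of 102. Dusp1 stays above the dotted line, Dusp4 and Dusp5 pass below the dashed line, and Dusp6 stays between the lines.

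**Figure D2:**
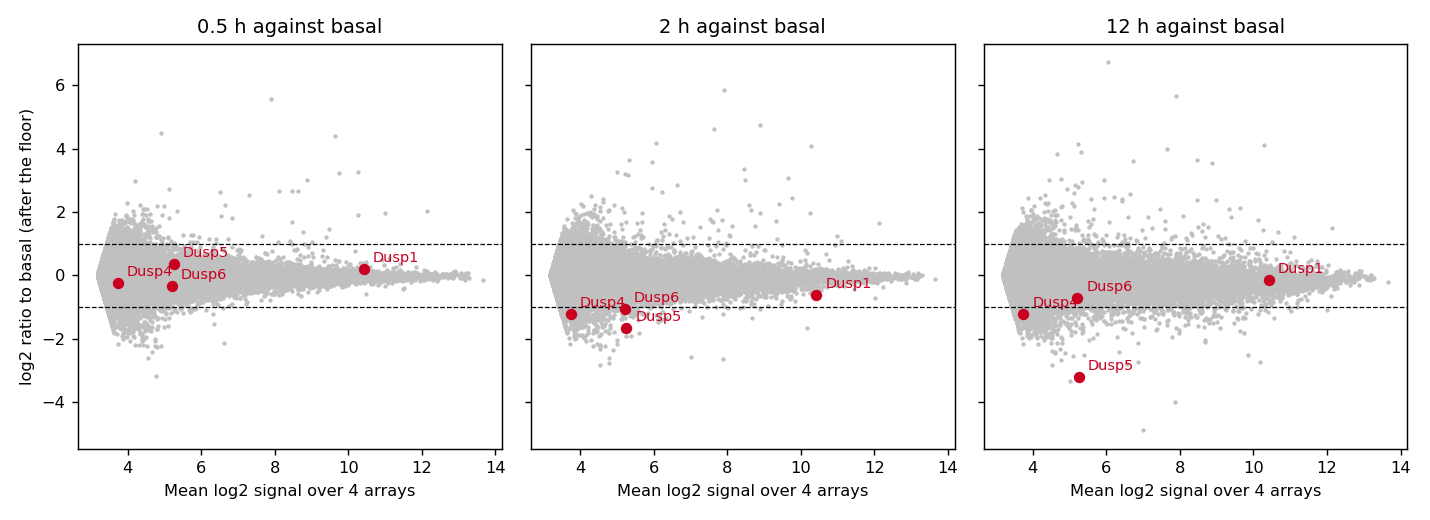
Log2 ratio to basal at 0.5 h, 2 h and 12 h (vertical axes) against mean log2 signal over the 4 arrays, 1 grey point for each of 16269 genes, with the 4 Dusp genes in red and dashed lines at 2-fold. Dusp1 lies outside the narrow band of genes of its signal at 2 h, and Dusp5 lies near the lower edge of all points at 12 h, where its ratio of -3.20 is set by the floor.

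The profiles of the 4 genes differed among themselves. The Euclidean distance over the 3 log2 ratios to basal was 0.91 between Dusp1 and Dusp6, the genes above the floor on every array. Distances to Dusp4 and Dusp5 depend on where the floor is set and are not ranked. Both Dusp1 and Dusp5 were highest at 0.5 h and lower than basal at 2 h, but at 12 h Dusp1 was back within 1.11-fold of basal and Dusp5 was under the floor.

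The genes nearest to each profile by the same distance were sought among 7311 named genes that reach the clear-signal level on an array. For Dusp5 they were Egr1 (distance 0.62), Egr2 (0.77), Nrk (1.28), Id2 and Nr4a1 (both 1.30). The 12 h ratio of Dusp5 is a bound set by the floor. These distances, and which of Egr1 and Egr2 is nearer, therefore depend on where the floor is set. Egr1, a zinc finger transcription factor gene, read 2174 on the basal array and 3688, 681 and 325 after 0.5, 2 and 12 h of TNF. Egr2, of the same family, read 81.9, 120, 21.5 and 14.4 on the same arrays in that order. Like Dusp5, both were highest at 0.5 h and lowest at 12 h. For Dusp1 the nearest were Rubcn (0.09), Phf21a (0.09), Sting1 (0.11), Pik3cb (0.13) and Arsj (0.15), all with basal signals between 100.4 and 149. For Dusp4 none are named, since the floor sets its 2 h and 12 h ratios. For Dusp6 they were Atg7 (0.13), Mdm2 (0.20), Msx1 (0.23), Pank1 (0.26) and Ifit1bl1 (0.27). A distance over 3 ratios from 4 arrays is a description, and many genes lie close to a profile with small changes such as that of Dusp1 or Dusp6.

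The other MAP kinase phosphatase genes gave no call against basal. Of Dusp2, Dusp7, Dusp8, Dusp9, Dusp10 and Dusp16, 0 rose and 0 fell against basal at any of the 3 times, and all 6 had ratios above 0 at 2 h, with medians of 0.17, 0.25 and -0.03 at the 3 times. The mean of each gene's probe sets left 4 of the 6 above 0 at 2 h, and with a floor at the 20th percentile or none Dusp2 passed 2-fold downward at 0.5 h and 12 h. Between 2.55% and 5.18% of all genes were called in a given direction against basal, so 0 calls among 6 genes says little. In the steps between arrays Dusp2 rose at least 2.90-fold from 0.5 h to 2 h, when 2.60% of all genes rose. It fell at least 2.90-fold from 2 h to 12 h, when 3.12% of all genes fell. The 0.5 h and 12 h signals of Dusp2 were under the floor. Whether the 6 genes differ from Dusp4, Dusp5 and Dusp6 was not tested. Dusp16, which encodes a phosphatase of JNK and p38, read 138 on the basal array and 158, 159 and 154 after 0.5, 2 and 12 h of TNF on its brighter probe set, within 1.15-fold of basal throughout. Dusp10, whose enzyme also acts on JNK and p38, read 68.4, 62.0, 69.0 and 55.6 in the same order of arrays.

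Dusp8, another phosphatase of JNK and p38, had the largest positive ratios of the 6 at 0.5 h and 2 h, at 0.89 and 0.84. Its 3 probe sets disagreed. The lead one (1418714_at) read 45.2 on the basal array and 83.9, 80.7 and 48.9 after 0.5, 2 and 12 h of TNF, while 1428864_at read 50.3, 61.3, 35.7 and 17.8 on those arrays. The second probe set therefore stood at -0.49 at 2 h and -1.50 at 12 h on the log2 scale, and the third, of low signal, at -0.52 and -1.63 with no floor. The sign of Dusp8 at 2 h and 12 h is uncertain for that reason. Dusp7, an ERK phosphatase of the cytoplasm, read 80.9, 110, 87.4 and 71.3, and its other 2 probe sets stood at -0.05 and 0.04 at 0.5 h, against 0.44 for the lead. At 2 h those 2 stood at -0.08 and -0.42, against 0.11 for the lead, so the sign of Dusp7 at 2 h is uncertain too. Dusp2 and Dusp9 stayed below a signal of 27 on all arrays.

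**Figure D3:**
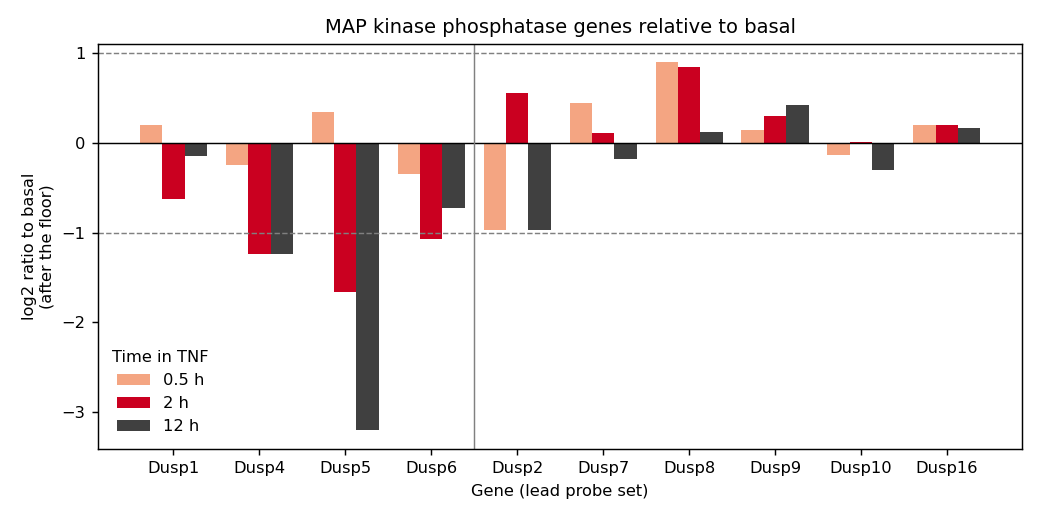
Log2 ratio to basal of 10 MAP kinase phosphatase genes at 0.5 h, 2 h and 12 h after the floor, 1 bar a time, with the 4 described genes left of the vertical line and dashed lines at 2-fold. Bars of Dusp4 at 2 h and 12 h, Dusp5 at 12 h and Dusp2 at 0.5 h and 12 h end where the floor sets them; only Dusp4, Dusp5 and Dusp6 pass the lower line.

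The list of atypical dual-specificity phosphatases, which lack the kinase-binding domain of the genes above, held 18 genes, of which 17 were analysed. It is named for most of its members, and besides Dusp genes it holds Styx, Ssh1, Ssh2 and Ssh3. Dusp28 alone rose, at 2 h (2.47-fold, from a basal signal of 15.7), and 0 fell at any time. Over all genes 2.58% rose at 2 h, and 2.96%, 3.60% and 5.18% fell at 0.5, 2 and 12 h. In a list of 17 such counts are near the background. The median log2 ratios of the 17 were -0.05, -0.04 and -0.17 at the 3 times, close to those of all genes.

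Of the other pathway lists, that of genes that ERK switches on had the most calls. It was also the longest list, and the lists were chosen with earlier results of these data known. Of 22 transcriptional targets of ERK analysed, 3 rose at 0.5 h, 6 fell at 2 h and 10 fell and 1 rose at 12 h, with medians of 0.30, -0.34 and -0.93. Over all genes 2.55% rose at 0.5 h, 3.60% fell at 2 h, and 5.18% fell and 2.79% rose at 12 h, and the medians were -0.03, -0.09 and -0.14. With quantile normalization or loess 4 fell at 2 h and 6 at 12 h. The largest changes were those of Egr3, Nr4a1, Egr1, Fos and Egr2. Fos, a subunit of AP-1, read 151 on the basal array and 526, 97.9 and 22.6 after 0.5, 2 and 12 h of TNF, so it rose at 0.5 h (3.50-fold), where the log2 ratios of Dusp5 and Dusp1 were 0.34 and 0.19, and fell at 12 h, as Dusp5 did. The other probe set of Egr3 read 30.3, 35.5, 31.3 and 5.85 on the arrays in order of time, a log2 ratio of 0.04 at 2 h and, with no floor, -2.37 at 12 h, against -4.90 for the lead one.

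Among 17 other inhibitors of ERK signalling, 1 rose and 1 fell at 0.5 h, 1 rose at 2 h and 3 fell at 12 h. Over all genes 2.55% rose and 2.96% fell at 0.5 h, 2.58% rose at 2 h and 5.18% fell at 12 h, so a count of 1 in this list is near the background. Errfi1, an inhibitor of the EGF receptor, read 649 on the basal array and 1057, 432 and 236 after 0.5, 2 and 12 h of TNF. It had the order of Dusp5 over the 4 arrays at a clear signal, and fell 2.75-fold at 12 h; its second probe set gave -1.39 beside -1.46. Ier3, whose product is known to prolong ERK phosphorylation despite the name of this list, rose 3.94-fold at 0.5 h and 2.36-fold at 2 h. Socs3, a cytokine signalling inhibitor, fell 2.03-fold at 12 h on its lead probe set, and its other 2 stood at -0.23 and -0.53. Il17rd, which holds back FGF signalling, fell 3.03-fold at 0.5 h to 13.3, with 0.05 on its other probe set, and Spred3, an inhibitor of Ras to ERK signalling, fell at least 2.00-fold at 12 h from 18.2.

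In each list of kinases, 0 or 1 gene was called in a direction at any time, all at low signal, beside 2.55% of all genes that rose and 2.96% that fell at 0.5 h, 2.58% and 3.60% at 2 h, and 2.79% and 5.18% at 12 h. In lists of this size such counts are near the background. Of 10 MAP kinase genes Mapk11, which encodes a p38 kinase, rose 2.12-fold at 12 h to 36.1 on its lead probe set. The other probe set of Mapk11 read 5.19, 16.1, 18.3 and 4.39 on the arrays in order of time, so it lay under the floor in basal cells and at 12 h and above it at 0.5 h and 2 h. Of 6 MAP kinase kinase genes Map2k6, an activator of p38, fell 2.67-fold at 12 h to 10.4. Of 15 upstream kinase and adaptor genes, Map3k8, whose kinase links TNF receptors to ERK, rose 2.69-fold at 0.5 h to 43.6 and stood at 15.2 at 2 h. Map3k1 fell at 0.5 h (at least 2.90-fold) and at 12 h (2.13-fold), and Map3k11 rose 2.12-fold at 2 h to 29.2. Of 17 growth factor receptors and ligands 0 rose or fell at any time. Ereg at 0.5 h (1.99-fold higher) and Hbegf at 2 h (1.99-fold lower), named after their values were seen, were just short of the rule. Among 12 effector kinases and transcription factors Mapkapk3, a kinase downstream of p38, fell 2.59-fold at 2 h and at least 5.29-fold at 12 h from 48.1. Its second probe set read 15.1, 8.87, 1.33 and 1.91 on the arrays in order of time, under the floor on every TNF array. The ratios of that probe set, -3.50 at 2 h and -2.98 at 12 h with no floor, are therefore not readable as a fall of that size. Among 8 scaffold genes Mapk8ip3, a scaffold of JNK, fell 2.23-fold at 0.5 h and Ksr1, a scaffold of ERK signalling, fell at least 3.36-fold at 2 h; their other probe sets stood between -0.38 and 0.77 at those times.

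**Figure D4:**
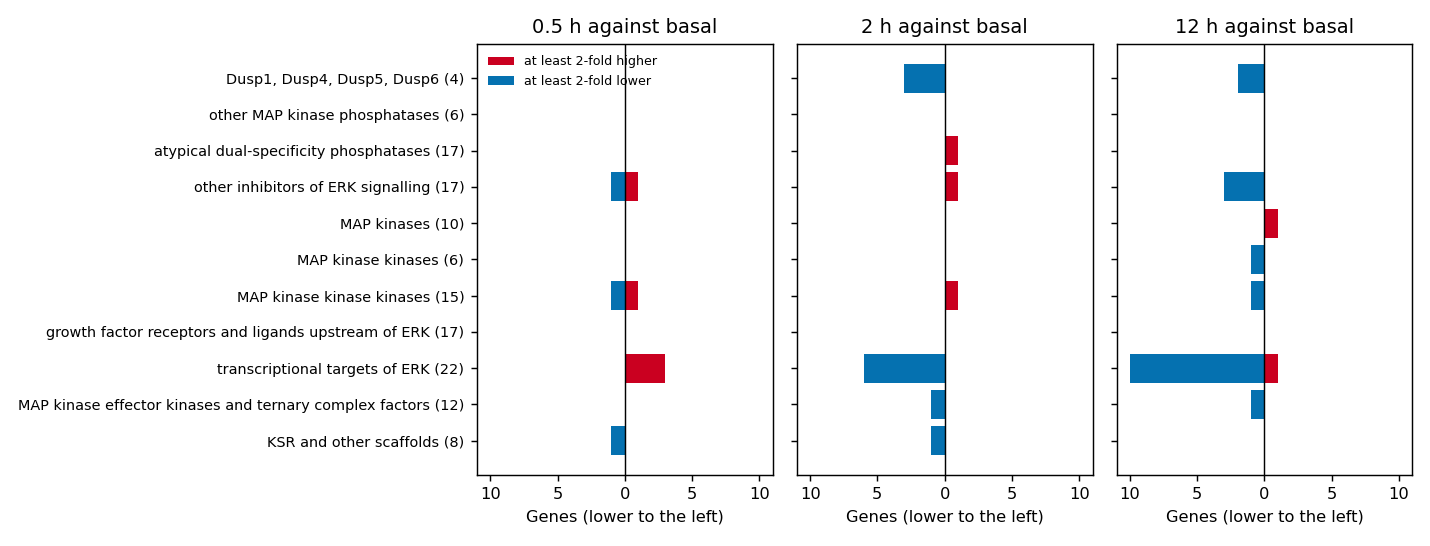
Number of genes at least 2-fold higher (red, right) or lower (blue, left) than basal at 0.5 h, 2 h and 12 h in each gene list, with the number of genes analysed in brackets. Dusp4, Dusp5 and Dusp6 make up the 3 lower genes of the top row at 2 h, and the transcriptional targets of ERK have the longest blue bars at 2 h (6) and 12 h (10).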

How the data were processed

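RNA of mouse 3T3 cells was measured on 4 Affymetrix Mouse Genome 430 2.0 arrays, from 8 µg of total RNA each, per the labels' protocols. The authors deposited linear intensity values, 1 a probe set and array; how probe signals were summarised, and whether arrays were scaled to each other, is not given in the labels. Depth has no meaning for arrays, and the number of arrays, 1 a group, limits the precision.

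Probe sets of 1 gene (34945, control probe sets left out) were named by the platform annotation, and a gene was represented by its probe set of highest mean log2 signal. Of 18193 genes, 1924 were left out because the probe set that represented them never exceeded the floor. Genes of like signal lie within 0.5 (log2) of a gene's mean. Ratios were computed in Python 3.11.15 with pandas 2.3.3, and quantile and cyclic loess scaling with limma 3.58.1. The procedure was tested on simulated data with the same small noise at every signal. Changes were placed only in genes of mean signal above the clear-signal level. It therefore does not cover calls at the mean signals of Dusp4, Dusp5 and Dusp6. No test was possible with 1 array a group. Members and lists were chosen with earlier results of these data known. Named genes were all probe sets of the 4 genes, the 5 nearest profiles of each (not printed for Dusp4, which the floor sets), at most 5 genes past 2-fold a list, and Nfkbia, Tnfaip3, Egr1 and Fos. Promoters are RefSeq's. Alternatives were 4 other floor settings, 3 scalings, the mean of probe sets and a 3-fold rule.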

Additional observations from a re-analysis of the deposited data

How the results depend on the processing

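Of 150 values of the 4 genes under other settings, 131 stayed within the deviation at like signal and on their side of 2-fold, and 19 did not. Many of the 131 could not move, so the tally overstates stability. They include all 20 values from the mean of probe sets. They also include those of Dusp1 and Dusp6 under other floors, all of which lay below their signals where a value was given. For Dusp4 the floor at the 20th percentile gave -2.16 at 2 h and 12 h against basal and -1.91 from 0.5 h to 2 h; at the 50th percentile these were -0.026, -0.026 and 0; with no floor they were -5.13, -3.20 and -4.88, and 1.93 from 2 h to 12 h. For Dusp5 the 50th percentile gave -1.99 at 12 h against basal and -0.33 from 2 h to 12 h, and the 75th gave 0 at 2 h and 12 h against basal, -0.055 from 0.5 h to 2 h and 0 from 2 h to 12 h; higher floors leave less range by construction. Dusp6 at 2 h was -0.974 with median centring, -0.972 with quantile normalization and -0.970 with loess. At the 75th percentile Dusp4 and Dusp6 never exceeded the floor and gave no value. Each gene has 1 probe set, so the mean of probe sets changed nothing. Over all genes 58 of 90 counts moved by over 1.5 times: genes higher at 0.5, 2 and 12 h (415, 420 and 454) numbered 24, 35 and 45 at the 75th percentile and 1643, 1604 and 1622 with no floor, and genes lower (481, 586 and 842) 1, 12 and 126, and 1754, 1999 and 2338. At 12 h quantile normalization gave 555 lower and loess 531. No paired analysis was possible because each group has 1 array. Low signal limits Dusp4 at 2 h and 12 h and Dusp5 at 12 h, where they lay under the floor.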
